A study of Mus musculus with 12 samples.

Results

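The genes of DNA repair and the damage checkpoint were described in mouse neural stem cell (NSC) cultures. The 46 genes were chosen by symbol, with no threshold on their values, and all 46 were found among the 17365 genes of the count table. All 46 also passed the filter on low counts and were among the 13641 genes tested. By role, 14 act in homologous recombination, 10 in the Fanconi anaemia pathway, 8 in break sensing and the checkpoint, 5 in end joining, 7 in base excision and single-strand break repair, and 2 in mismatch repair.

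RNA was sequenced from 2 wild-type lines derived from the subventricular zone of mice 6 to 8 weeks old, ANS4 of strain MF1 and BL6 of C57BL/6 mice, both kept at low passage. EGF/FGF cells stayed in EGF and FGF2 and proliferated, BMP cells received BMP4, and BMP/FGF cells received BMP4 together with FGF2, each factor at 10 ng/ml and each treatment for 3 days. All cultures had been expanded in EGF and FGF2 on laminin before treatment. Every condition held 4 libraries, 2 biological replicates of each line, so that each strain is represented by 1 line and p-values measure the spread between these cultures. The study used BMP as a model of dormant and BMP/FGF as a model of primed quiescence.

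Cells repair their DNA by pathways that suit the lesion and the stage of the cell cycle. Homologous recombination copies the sister chromatid and therefore works mainly in S and G2 phase, together with the Fanconi anaemia proteins, which clear crosslinks met by replication forks. End joining and base excision do not need a sister chromatid and serve resting cells as well. Broken or unreplicated DNA is sensed by the kinases Atm and Atr, which act through Chek2 and Chek1 to halt the cycle.

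Library totals lay between 18069052 and 19451818 counts, and the lowest count of any of the 46 genes in any library was 8 (Rad51b). In EGF/FGF libraries the 46 genes took 0.198% ± 0.0159 of all counts (SD, n = 4). Their share was 0.0972% ± 0.00875 in BMP and 0.0850% ± 0.00214 in BMP/FGF. Stem cell markers such as Sox2, Nes and Vim had a summed level over 8 genes of 7638 to 11855 CPM, counts scaled to the size of the library. Single markers moved apart against EGF/FGF (edgeR, FDR under 0.05). In BMP 3 of the 8 were lower and 5 higher, from Fabp7 at -2.40 to Sox9 at 2.02 on the log2 scale. In BMP/FGF 3 were lower and 4 higher, from Nes at -2.31 to Sox9 at 1.89. Of all tested genes, 38.8% were lower and 40.2% higher in BMP, and 38.1% and 40% in BMP/FGF. The 33 genes of a list of cycling cells had a summed level of 5943 to 6969 CPM in the EGF/FGF libraries. It was 1113 to 1495 CPM for BMP and 771 to 804 CPM for BMP/FGF. Neuroblast and neuron markers (7 genes) had summed levels of 40.7 to 45.5 CPM in EGF/FGF, of 556 to 1072 CPM in BMP and of 211 to 242 CPM in BMP/FGF. Astrocyte and quiescent stem cell markers (6 genes) summed to 1077 to 1352 CPM in EGF/FGF, while BMP libraries held 2717 to 3366 and BMP/FGF libraries 5028 to 5225. Oligodendrocyte markers (5 genes, with Mog and Mag at or under 3 counts in EGF/FGF) lay at 25.4 to 29.9, 154 to 183 and 255 to 265 CPM in the same order, and ependymal markers (4 genes) at 64.5 to 80.1, 202 to 244 and 205 to 218 CPM. The 3 endothelial markers in the table, of 5, lay at 39.1 to 47.2, 5.55 to 9.27 and 14.9 to 18.9 CPM, and those of pericytes and fibroblasts, 4 of 5, under 3 CPM in sum. The microglia markers found in the table, 7 of 12, together reached 5.83 to 19.1 CPM. In bulk RNA, fewer cells that express a gene cannot be told apart from less of its RNA in each cell, and the part of cycling cells and of these other markers in the results that follow was not tested. The replicates of BL6 in BMP differed more from each other than the replicates of any other line and condition, with a chi-square per degree of freedom over genes of 12.1 against 2.12 to 4.66.

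Promoter sequences were given for 38 of the 46 genes by RefSeq (GRCm38.p6, 250 bases before to 50 after the annotated start). The E2F site was searched as the octamers TTTCCCGC, TTTGGCGC, TTTCGCGC and TTTGCCGC on both strands, since E2F factors drive many genes of the S phase. It was found in 7 of the 38 promoters (18.4%) and in 449 of 10834 promoters of tested genes (4.14%). By change in BMP, it was found in 4 of 16 promoters of genes that fell beyond 1.5 on the log2 scale (25.0%) and in 3 of the other 22 (13.6%), a difference that was not tested. The promoters of Bard1, Brca2 and Chek2, which fell and hold a match, are shown to give the letters in place, and that of Xrcc4, which rose, as one without them. The same letters were not found in the windows of Fanci, Fancb, Brca1, Chek1, Rad51ap1 and Blm, each of which fell by more in BMP than the 3 shown. The windows of Fanci and Chek1 are set 409 and 407 bases inside the gene as GENCODE places it. Windows with a match are set inside as well, by 448 bases in Rad51c, 205 in Fancg and 174 in Bard1. Sites outside a window, or with other letters, would be missed, and the part of E2F in these falls was not tested. Capitals mark the E2F letters, and each sequence reads 5′ to 3′ in the direction of its gene. Bard1 is on the minus strand at chr1:71102923-71103222, Brca2 on the plus strand at chr5:150522371-150522670, Chek2 on the plus strand at chr5:110839733-110840032, and Xrcc4 on the minus strand at chr13:90089559-90089858.
Bard1: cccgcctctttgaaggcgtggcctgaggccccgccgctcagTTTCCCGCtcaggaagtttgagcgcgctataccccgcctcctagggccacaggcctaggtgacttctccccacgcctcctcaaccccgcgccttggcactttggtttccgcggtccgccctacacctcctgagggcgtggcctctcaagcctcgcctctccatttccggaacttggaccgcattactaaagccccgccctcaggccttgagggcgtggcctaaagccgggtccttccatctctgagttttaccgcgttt
Brca2: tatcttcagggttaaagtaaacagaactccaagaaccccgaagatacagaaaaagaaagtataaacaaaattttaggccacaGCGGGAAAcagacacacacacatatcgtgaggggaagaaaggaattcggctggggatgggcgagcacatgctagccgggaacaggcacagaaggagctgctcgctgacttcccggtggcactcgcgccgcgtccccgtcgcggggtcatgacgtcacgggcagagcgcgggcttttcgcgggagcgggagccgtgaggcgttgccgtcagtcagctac
Chek2: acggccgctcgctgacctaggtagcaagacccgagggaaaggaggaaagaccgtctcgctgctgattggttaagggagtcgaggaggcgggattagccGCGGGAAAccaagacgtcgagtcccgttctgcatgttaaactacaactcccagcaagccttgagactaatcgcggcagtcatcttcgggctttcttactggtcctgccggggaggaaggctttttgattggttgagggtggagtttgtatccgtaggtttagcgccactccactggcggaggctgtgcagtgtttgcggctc
Xrcc4: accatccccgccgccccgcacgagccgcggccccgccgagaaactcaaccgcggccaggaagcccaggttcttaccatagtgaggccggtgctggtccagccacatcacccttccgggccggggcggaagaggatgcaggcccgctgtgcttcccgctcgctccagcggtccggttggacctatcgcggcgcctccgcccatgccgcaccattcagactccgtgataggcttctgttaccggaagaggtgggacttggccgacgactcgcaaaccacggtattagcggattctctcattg
The marked letters begin 209 bases before the start in Bard1, 168 before it in Brca2 and 152 before it in Chek2. The other genes with a match were Rad51c, at a log2 change of -1.73 in BMP, Msh6 at -1.17, Xrcc6 at -1.03 and Fancg at -0.51. The Xrcc6 window lies 28.5 kb inside the gene as GENCODE places it and may belong to an alternative start, and that of Fancc lies 65.5 kb inside its gene. Without these 2 the letters were in 6 of 36 promoters (16.7%). The CCAAT box lay in 23 of the 38 promoters (60.5%), against 39.0% of those of tested genes. The GC box GGGCGG lay in 26 of the 38 (68.4%, against 64.7%), and the letters TTTGAA or TTCGAA of the CHR element in 3 (7.89%, against 13.4%). The core of the interferon-stimulated response element, GAAA spaced by 2 bases from a second GAAA, was read in 5 (13.2%, against 2.97%). These are matches of letters in a short window and do not show binding.

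The first question was how the repair genes differed between proliferating and quiescent cells. In BMP, 43 of the 46 genes were lower than in EGF/FGF (edgeR quasi-likelihood test, FDR under 0.05), 2 were higher (Rad51d and Xrcc4) and Ogg1 did not pass. Among all tested genes 38.8% were lower and 40.2% higher. The median log2 fold change was -1.19 over the 46 genes and 0.02 over all tested genes. A fall of more than 1.5 on the log2 scale was reached by 20 of the 46 genes, against 7.21% of all tested genes, and a rise of that size by none, against 11.3%. In BMP/FGF, 44 genes were lower and 2 higher, where 38.1% of all tested genes were lower and 40% higher, with a median of -1.22. Of these, 21 fell beyond 1.5 and none rose beyond it, against 6.39% and 11% of all tested genes. Both comparisons used the same EGF/FGF libraries. The levels in all 4 BMP libraries lay under all 4 EGF/FGF libraries for 42 genes and over them for 2, where 34.7% and 35.6% of all tested genes were apart in this way. For BMP/FGF the numbers were 43 and 2, against 36.9% and 38.1%.

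**Figure D1:**
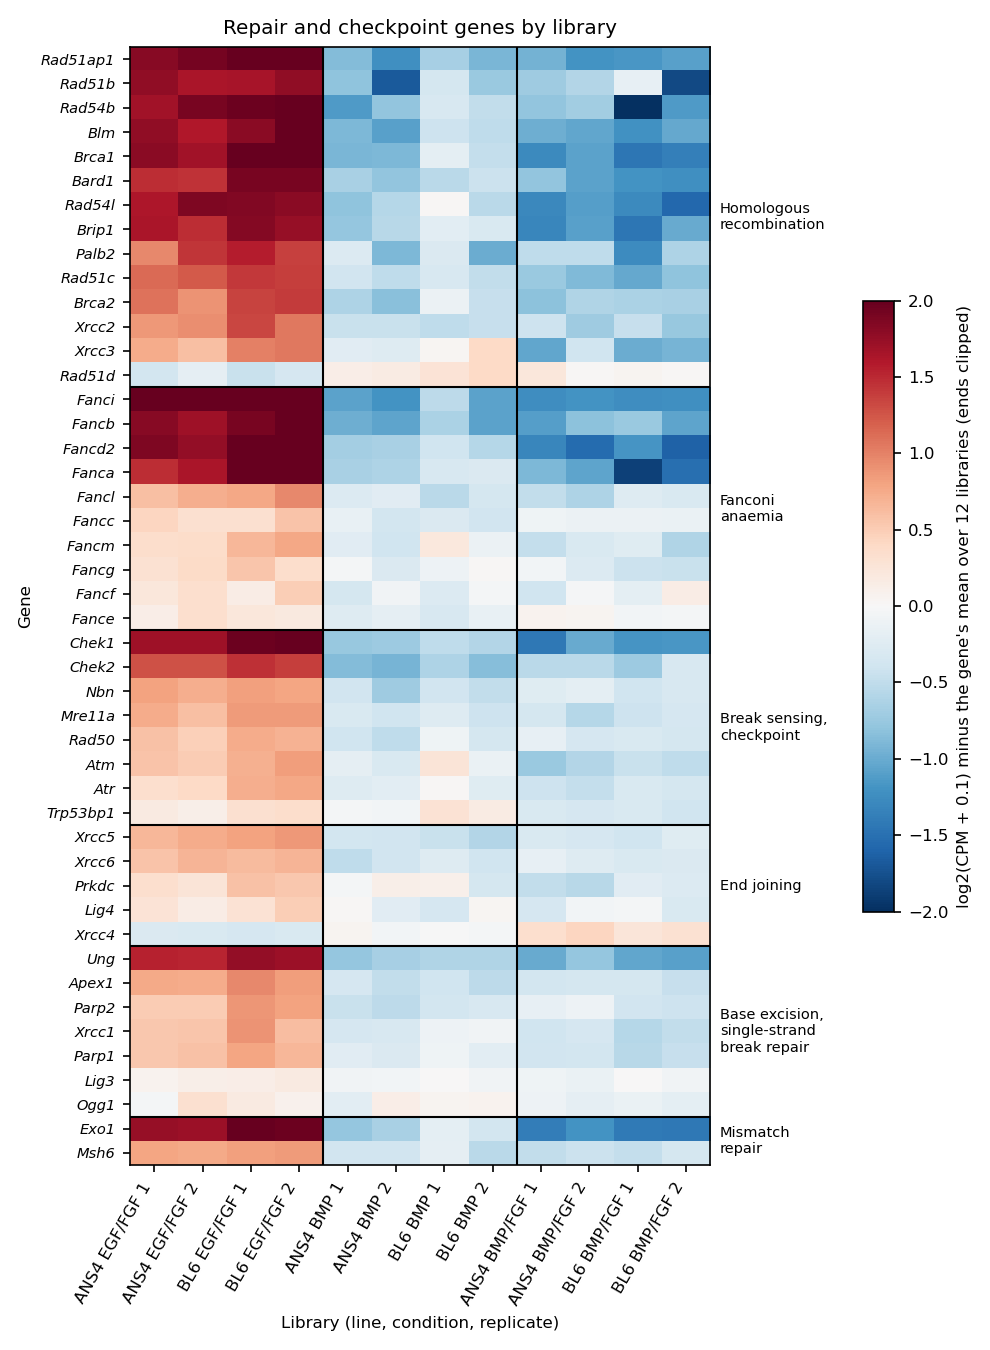
Level of each of the 46 genes (rows, by role) in each of the 12 libraries (columns), as log2 of CPM with 0.1 added minus the gene's mean over the libraries; red is above and blue below that mean, with colours ending at 2 in either direction. The EGF/FGF columns are above the mean for nearly all genes, Rad51d and Xrcc4 being the reverse.

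Homologous recombination genes fell most. In BMP 13 of 14 were lower and 12 of them by more than 1.5, with a median log2 fold change of -2.19, and in BMP/FGF the median was -2.64. Rad51ap1, an accessory factor of strand pairing, had the largest fall of these 14 in BMP. Its levels in EGF/FGF were 23.9 and 25.6 CPM in ANS4 and 29.6 and 31.7 in BL6. In BMP they were 3.66 and 2.83 CPM in ANS4 and 4.22 and 3.53 in BL6, and in BMP/FGF 3.44, 2.89, 2.94 and 3.12 CPM in the same order, ANS4 before BL6, which holds for all lists of 4 libraries. The quiescent libraries overlapped each other and lay far under every EGF/FGF library, a log2 fold change of -2.96 (SE 0.110, adjusted p 5.62e-14) in BMP and -3.15 (SE 0.112, adjusted p 3.26e-14) in BMP/FGF, both by edgeR.

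Brca1, which promotes resection of broken ends, lies at chr11:101488764-101551955 (GRCm38). It was at 64.9 and 59.4 CPM in ANS4 and 75.7 and 80.0 in BL6 in EGF/FGF, at 9.82, 9.94, 16.2 and 13.3 CPM in BMP, and at 7.62, 8.78, 6.72 and 7.13 CPM in BMP/FGF. All 3 conditions were apart, with EGF/FGF highest and BMP/FGF lowest, and it fell 5.69-fold in BMP and 9.14-fold in BMP/FGF. Bard1, its partner in a ubiquitin ligase, changed by -2.31 (SE 0.122) in BMP on the log2 scale. Brip1, a helicase that binds Brca1, was at 29.9, 26.8, 34.1 and 32 CPM in EGF/FGF, at 5.55, 6.44, 8.19 and 7.72 in BMP and at 3.81, 4.44, 3.44 and 4.68 in BMP/FGF. Its 3 conditions did not overlap either. Brca2, which acts after resection to prepare single-stranded DNA for strand exchange, changed by -1.68 (SE 0.0975) in BMP and Palb2, which joins Brca1 to Brca2, by -1.98 (SE 0.202).

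Rad51b, Rad51c, Xrcc2 and Xrcc3, whose products form small complexes that assist strand exchange, fell in BMP, by log2 changes of -2.64, -1.73, -1.53 and -0.87. Rad51d, of the same complexes, rose. It was at 21.0 and 24.0 CPM in ANS4 and 19.9 and 21.5 in BL6 in EGF/FGF, at 29.6, 30.5, 32.6 and 35.9 CPM in BMP and at 31.6, 27.6, 28.1 and 27.6 CPM in BMP/FGF. Every quiescent library was above every EGF/FGF library, a log2 fold change of 0.57 (SE 0.0840, edgeR adjusted p 6.01e-06) in BMP and 0.41 (SE 0.0844, edgeR adjusted p 0.000236) in BMP/FGF. In the log2 values (rlog) that the authors deposited, Rad51d did not pass the test and was at -0.07 in BMP/FGF against EGF/FGF, while an rlog recomputed from the counts gave 0.38. The direction of Rad51d therefore rests on the count table, and the cause of the gap was not tested.

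The motor proteins of recombination fell too, with Rad54l at -2.25 (SE 0.134), Rad54b at -2.62 (SE 0.205) and the helicase Blm at -2.51 (SE 0.107) in BMP on the log2 scale. Rad54b was at 8.76, 10.2, 10.8 and 11.4 CPM in EGF/FGF, at 1.16, 1.5, 2.11 and 1.87 in BMP, and at 1.5, 1.61, 0.5 and 1.17 in BMP/FGF. These low levels rest on 9 to 41 counts a library in the quiescent conditions. Rad54b shares 35.8% of its exon bases with Fsbp on the same strand, so that reads of the pair may have been divided between them by the counting.

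**Figure D2:**
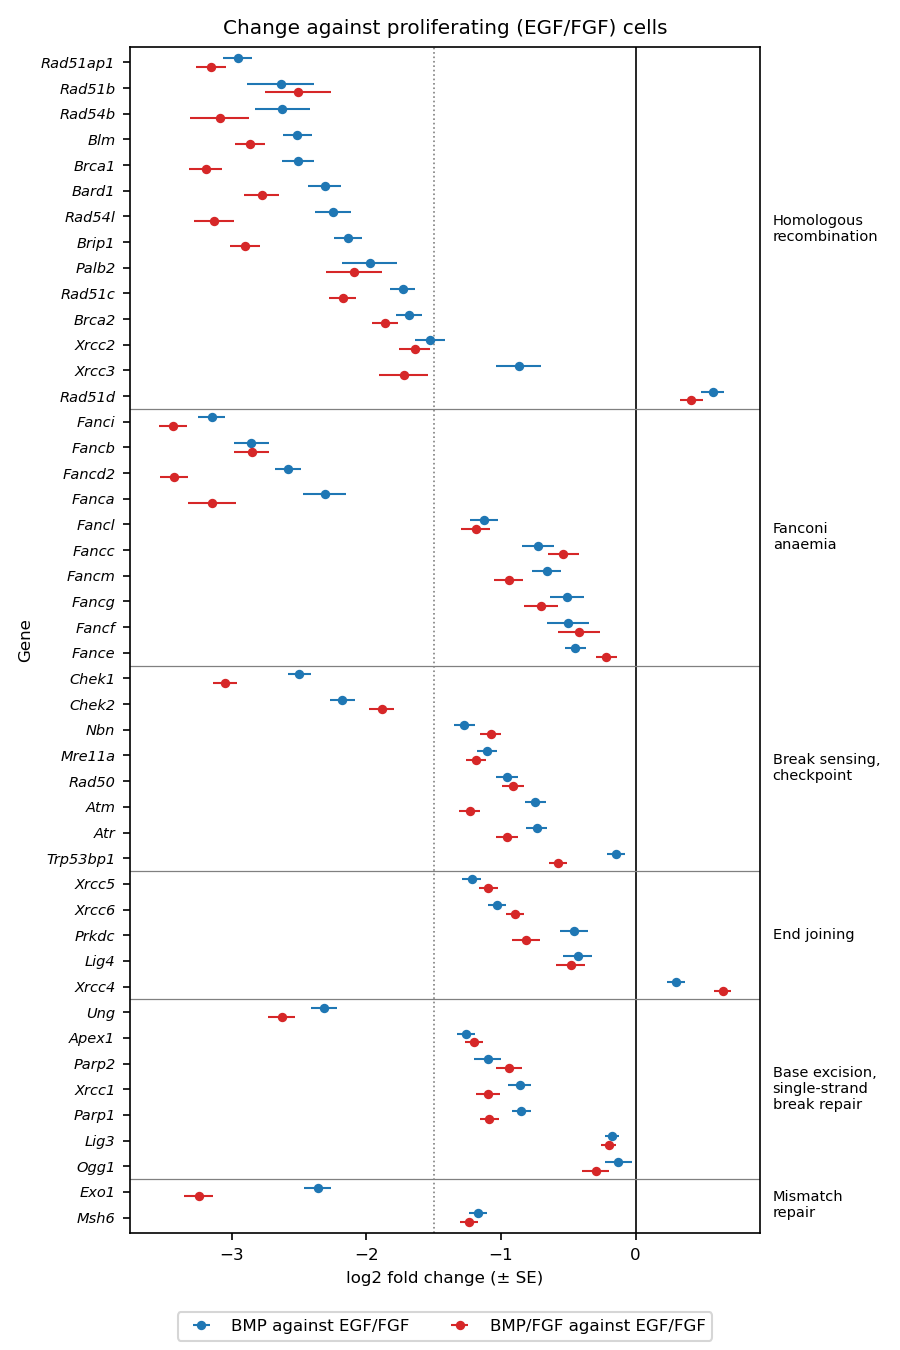
Log2 fold change (± SE) of each of the 46 genes in BMP (blue) and BMP/FGF (red) against EGF/FGF, ordered within each role by the change in BMP; the dotted line marks -1.5. Homologous recombination genes lie mostly left of the line, end joining genes right of it, and Rad51d and Xrcc4 are right of 0.

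The Fanconi anaemia genes, all 10 of which were lower in both quiescent conditions, fell into unequal ranges. Fanci, Fancb, Fancd2 and Fanca changed by -3.15, -2.85, -2.58 and -2.31 in BMP on the log2 scale. The other 6, from Fancl at -1.12 to Fance at -0.45, did not reach -1.5. Fanci and Fancd2 form the pair that is ubiquitinated at a crosslink. Most of the others belong to the core complex that carries out this step, with Fanca among the larger falls and Fancl among the smaller. Fanci (chr7:79391929-79450264) had the largest fall of the 46 genes. It was at 52.2 and 52.5 CPM in ANS4 and 61.3 and 59.7 in BL6 in EGF/FGF, at 5.82, 5.33, 8.50 and 5.81 CPM in BMP, and at 5.15, 5.30, 5.11 and 5.18 CPM in BMP/FGF. The fall was 8.86-fold in BMP and 10.8-fold in BMP/FGF, and the BL6 BMP library at 8.50 stood above the other 3. Of its exon bases 16.0% overlap Polg on the opposite strand.

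Fancd2 was at 36.9, 34.2, 46.2 and 43.6 CPM in EGF/FGF, at 6.21, 6.33, 7.52 and 6.69 in BMP, and at 3.97, 3.37, 4.33 and 3.18 in BMP/FGF. Its conditions did not overlap, and the fall was 5.99-fold in BMP and 10.8-fold in BMP/FGF. Fanca, a core subunit, was at 13.9, 15.4, 21.4 and 20.0 CPM in EGF/FGF, at 3.11, 3.16, 3.92 and 3.99 in BMP, and at 2.58, 2.30, 1.28 and 1.67 in BMP/FGF. Fance, the subunit that bridges the core complex to Fancd2, moved least, with 19.9, 23.0, 21.2 and 20.7 CPM in EGF/FGF, 15.3, 16.1, 14.6 and 16.3 in BMP and 19.0, 18.8, 17.5 and 17.8 in BMP/FGF. Its BMP/FGF libraries lay between the other conditions, with a log2 fold change of -0.45 (SE 0.0765) in BMP and -0.22 (SE 0.0757) in BMP/FGF against EGF/FGF. Fancl, the ubiquitin ligase of the complex, changed by -1.12 (SE 0.105) in BMP and Fancm, which anchors it to DNA, by -0.66 (SE 0.106).

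All 8 break sensing and checkpoint genes were lower in BMP and in BMP/FGF, with medians of -1.03 and -1.13. The effector kinases stood out in size. Chek1, which Atr activates, lies at chr9:36708482-36727065. It was at 52.5 CPM in both ANS4 libraries and 63.1 and 64.9 in BL6 in EGF/FGF, at 9.49, 9.66, 11.3 and 10.7 CPM in BMP, and at 5.91, 7.98, 7.05 and 7.13 CPM in BMP/FGF. EGF/FGF, BMP and BMP/FGF did not overlap in this order, with a fall of 5.65-fold and 8.26-fold. Chek2, which Atm activates, changed by -2.18 (SE 0.0929) in BMP and by -1.89 (SE 0.0908) in BMP/FGF.

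The kinases that act before them changed less. Atm was at 93.7, 89.8, 103 and 112 CPM in EGF/FGF, at 55.4, 51.1, 75.1 and 57.1 in BMP and at 37.7, 42.0, 46 and 44.2 in BMP/FGF. No library of one condition reached the range of another, with a log2 change of -0.74 (SE 0.0767) in BMP and -1.23 (SE 0.0783) in BMP/FGF. Atr changed by -0.73 (SE 0.0792) and -0.95 (SE 0.0803). Mre11a, Rad50 and Nbn, which form the complex that binds broken ends, changed by -1.10, -0.95 and -1.27 in BMP.

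Trp53bp1, which shields broken ends from resection, moved least in this role. Its levels were 95.3, 90.8, 104 and 106 CPM in EGF/FGF, 81.8, 80.4, 102 and 94.2 in BMP and 67.8, 66.5, 68.1 and 63.3 in BMP/FGF. BMP overlapped EGF/FGF and BMP/FGF was under both. The log2 change was -0.15 (SE 0.0655, edgeR adjusted p 0.0481) in BMP and -0.57 (SE 0.0663, edgeR adjusted p 3.36e-07) in BMP/FGF. The call in BMP did not hold in 13 of 22 alternative fits. Trp53bp1 shares 15% of its exon bases with Tubgcp4 on the opposite strand.

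**Figure D3:**
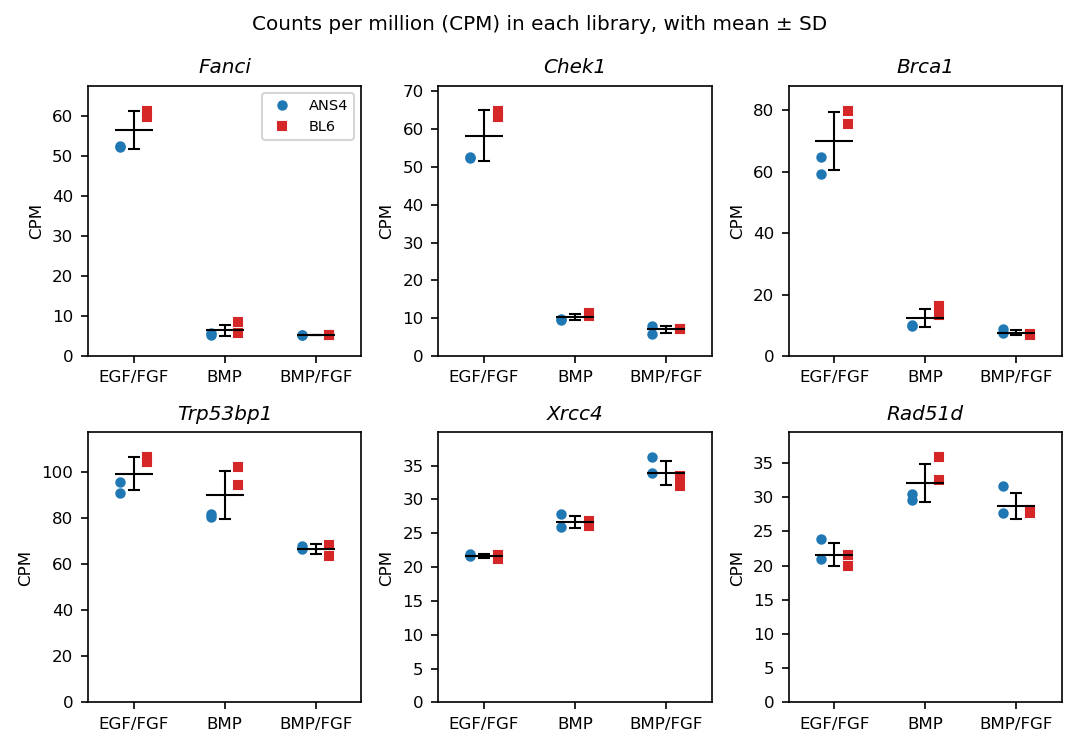
CPM of 6 genes in each of the 12 libraries, with ANS4 as blue circles and BL6 as red squares, and the mean ± SD of the 4 libraries of a condition in black; axes start at 0. Fanci, Chek1 and Brca1 are far lower in both quiescent conditions, Trp53bp1 is lowest in BMP/FGF, Xrcc4 rises from EGF/FGF to BMP to BMP/FGF, and Rad51d is higher in both quiescent conditions.

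Of the 5 end joining genes 4 were lower and 1 higher in BMP, none by more than 1.5. Their median was -0.46 in BMP, which is the value of Prkdc, and -0.81 in BMP/FGF. Both were the smallest medians of a role by the counts. In the log2 values that the authors deposited the median in BMP was -0.88, beyond those of the Fanconi genes (-0.80) and base excision (-0.82), so that the order of these roles in BMP rests on the count table. Xrcc5 and Xrcc6 encode the Ku proteins that cap a broken end. Xrcc5 was at 63.3, 66.8, 70.2 and 73.5 CPM in EGF/FGF, at 31.2, 30.6, 29.4 and 26.6 in BMP, and at 32.4, 31.6, 30.4 and 33.8 in BMP/FGF. It was 2.32-fold lower in BMP, and its quiescent conditions overlapped. Xrcc6 changed by -1.03 (SE 0.0683) in BMP on the log2 scale, and Prkdc, the kinase that Ku recruits, by -0.46 (SE 0.101).

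Xrcc4, the scaffold of the joining ligase, lies at chr13:89774027-90089608 and rose in both conditions. It was at 21.9, 21.7, 21.2 and 21.8 CPM in EGF/FGF, at 27.9, 25.9, 26.7 and 26.1 in BMP, and at 33.9, 36.3, 32 and 33.4 in BMP/FGF. The conditions did not overlap, with a log2 change of 0.30 (SE 0.0663, edgeR adjusted p 0.000476) in BMP and 0.65 (SE 0.0656, edgeR adjusted p 5.95e-08) in BMP/FGF. Lig4, the ligase that Xrcc4 holds, changed by -0.43 (SE 0.108) in BMP.

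Base excision and single-strand break repair genes were lower in 6 of 7 cases in BMP, with a median of -0.86, and in 7 of 7 in BMP/FGF, with a median of -1.09. The glycosylases, which remove a damaged base, differed. Ung, which removes uracil from DNA, was at 25.5, 25.4, 29.9 and 28.9 CPM in EGF/FGF, at 5.05, 5.50, 5.72 and 5.75 in BMP and at 4.30, 5.09, 4.22 and 4.07 in BMP/FGF, where BMP and BMP/FGF overlapped. Its fall of 4.97-fold in BMP was the only one in this role beyond 1.5 on the log2 scale. Ogg1, which removes oxidised guanine, was at 11.9, 15.3, 13.8 and 12.9 CPM in EGF/FGF, at 10.5, 13.4, 12.7 and 12.8 in BMP, and at 11.4, 10.8, 11.2 and 10.6 in BMP/FGF. BMP overlapped EGF/FGF at a log2 change of -0.13 (SE 0.0991, edgeR adjusted p 0.244), and BMP/FGF was under every EGF/FGF library at -0.30 (SE 0.1, edgeR adjusted p 0.0122).

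Apex1, the endonuclease that cuts at the emptied site, changed by -1.26 (SE 0.0658) in BMP, although 61.7% of its exon bases overlap Pip4p1 on the opposite strand. Whether the libraries kept the strand is not given in the sources used here, so that reads of such pairs may not have been told apart. Parp1 and Parp2, which sense strand breaks, changed by -0.85 (SE 0.0688) and -1.10 (SE 0.0983), and the scaffold Xrcc1 by -0.86 (SE 0.0851). Lig3, the ligase bound to Xrcc1, changed by -0.17 (SE 0.0526, edgeR adjusted p 0.00621), and 25.1% of its exon bases overlap Rffl on the opposite strand.

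Both mismatch repair genes fell. Msh6, which recognises mispaired bases, was at 97.3, 95.7, 99.6 and 102 CPM in EGF/FGF, at 43.4, 43.1, 49.7 and 39.0 in BMP and at 40.2, 42.1, 40.6 and 44.4 in BMP/FGF. Its quiescent conditions overlapped, 2.25-fold and 2.36-fold under EGF/FGF. Exo1, the nuclease that removes the mispaired strand, was at 27.5, 26.8, 32.9 and 32.1 CPM in EGF/FGF, at 4.72, 5.16, 7.06 and 6.27 in BMP and at 3.06, 3.48, 3.00 and 2.95 in BMP/FGF. Here all 3 conditions were apart, with a fall of 5.14-fold in BMP and 9.48-fold in BMP/FGF.

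Per length of the longest coding transcript, the order of the genes by level changed with condition. In EGF/FGF the highest levels were those of Apex1 (94.6 ± 6.62 CPM per kb, SD, n = 4), Parp1 (63.0 ± 4.97) and Xrcc5 (26.8 ± 1.71), and the lowest that of Palb2 (1.93 ± 0.337). Chek1, at 15.3 ± 1.76 CPM per kb, and Xrcc4, at 14.1 ± 0.196, did not differ beyond their spread over both lines in EGF/FGF. The spread of Chek1 lay mainly between the lines, at 52.5 CPM in both ANS4 libraries and 63.1 and 64.9 in BL6. In BMP/FGF Chek1 was at 1.85 ± 0.224 and Xrcc4 at 22.0 ± 1.14 CPM per kb. Only 2 of the 46 genes were then above Xrcc4, namely Apex1 (41.1 ± 1.54) and Parp1 (29.7 ± 1.87).

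The next question was whether FGF2 beside BMP4 altered the repair genes of quiescent cells. In BMP/FGF against BMP, 18 of the 46 genes were lower and 3 higher at FDR under 0.05, and 25 did not pass. Of all tested genes 21.5% were lower and 19.2% higher. No gene of the 46 changed by more than 1.5 on the log2 scale, against 0.938% of all tested genes lower and 0.968% higher by that much. The median log2 fold change was -0.19 over the 46 genes and -0.01 over all tested genes. The conditions were apart for 15 genes lower and 3 higher, against 18.4% and 16.7% of all tested genes. The cycling list was lower by a median of -0.88 in the same comparison, with 33 of 33 genes called.

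Recombination held 7 of the 18 lower genes, with a median over its 14 genes of -0.40. The lowest values were those of Exo1 (-0.88, SE 0.125, edgeR adjusted p 2.80e-05), Rad54l (-0.88, SE 0.170), Xrcc3 (-0.85, SE 0.198), Fancd2 (-0.84, SE 0.120, edgeR adjusted p 2.77e-05), Fanca (-0.84, SE 0.209), Brip1 (-0.76, SE 0.126) and Brca1 (-0.68, SE 0.134). Among the checkpoint genes, Chek1 fell by 0.55 (SE 0.0978), Atm by 0.49 (SE 0.0789) and Trp53bp1 by 0.43 (SE 0.0665, edgeR adjusted p 7.26e-05). Exo1, Fancd2, Trp53bp1, Atm, Brip1, Chek1 and Xrcc4 kept their call in each of the 22 alternative fits, and the other 14 calls were lost in at least 1. Prkdc, at -0.36 (SE 0.104, edgeR adjusted p 0.0109), had the opposite sign of 0.09 in the deposited log2 values.

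The 3 genes that rose were Xrcc4 (0.35, SE 0.0648, edgeR adjusted p 0.000407), Chek2 (0.29, SE 0.102, edgeR adjusted p 0.0290) and Fance (0.23, SE 0.0775, edgeR adjusted p 0.0247). Chek2 was at 6.77, 6.49, 8.04 and 6.84 CPM in BMP and at 8.48, 8.57, 7.49 and 9.92 in BMP/FGF, so that its conditions overlapped in the BL6 line. Its call was lost in 9 of the 22 alternative fits and that of Fance in 6. Without either ANS4 BMP/FGF library the count of risen genes was 1, which was Xrcc4.

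**Figure D4:**
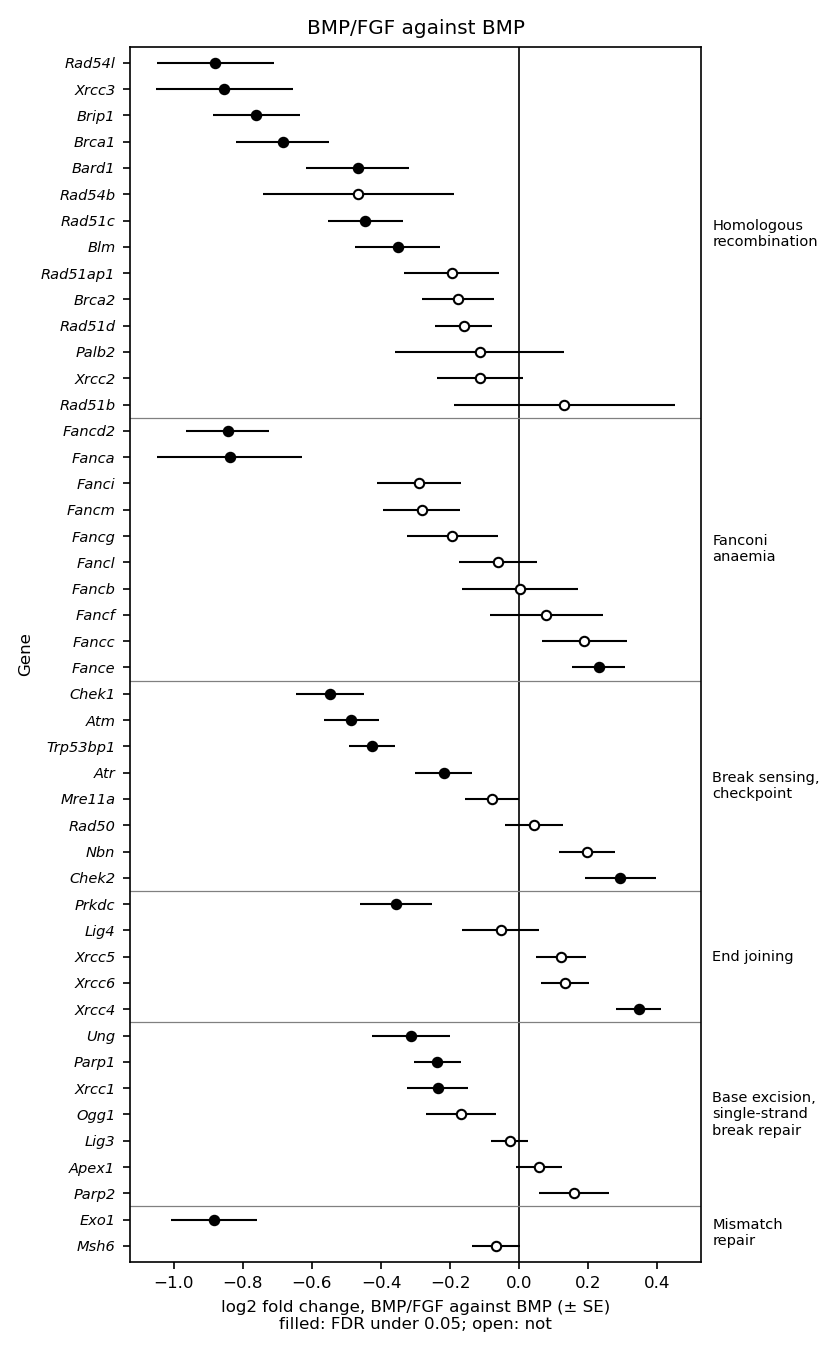
Log2 fold change (± SE) of each of the 46 genes in BMP/FGF against BMP by role, with filled points at FDR under 0.05 and open points otherwise. The 18 filled points left of 0 include Exo1, Rad54l and Fancd2, and the 3 right of it are Xrcc4, Chek2 and Fance.

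The lines were compared by the interaction of line and condition. For BMP against EGF/FGF, 42 of the 46 genes were lower and 2 higher in each line, with medians of -1.12 in ANS4 and -1.28 in BL6. Of all tested genes 36.4% were lower and 37.4% higher in ANS4, and 37.7% and 38.6% in BL6. No gene had a line difference in this comparison (edgeR), where 8.49% of all tested genes had one. At an unadjusted p under 0.05 there were 4, and DESeq2 and limma also called 0. For BMP/FGF against BMP the lines were less alike, with 8 genes lower and 3 higher in ANS4 (median -0.08) and 21 lower and 1 higher in BL6 (median -0.31). Of all tested genes 17.1% were lower and 13.8% higher in ANS4, and 22.6% and 21.4% in BL6. A line difference was called for 7 of the 46 genes, against 13.5% of all tested genes, a share near this background. The value of BL6 was the lower one in these 7, and in 849 of the 1836 called among all tested genes, with the direction in the 7 genes not tested against that split.

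Brca1 changed by -0.27 (SE 0.129) in ANS4 and -1.09 (SE 0.125) in BL6, a difference of -0.83 (SE 0.181, edgeR adjusted p 0.00650). Fanca changed by -0.36 (SE 0.189) and -1.42 (SE 0.200), a difference of -1.06 (SE 0.279, edgeR adjusted p 0.0187). Parp2 was at 19.0 and 18.0 CPM in BMP and 23.2 and 24.2 in BMP/FGF in ANS4, and at 20.0 and 20.8 and then 19.9 and 19.3 in BL6. It rose in ANS4 by 0.36 (SE 0.0872) and was at -0.06 (SE 0.0876) in BL6, a difference of -0.42 (edgeR adjusted p 0.0329). Rad54b differed by -1.47 (SE 0.44, edgeR adjusted p 0.0344). Trp53bp1, Blm and Xrcc1 differed by -0.31, -0.64 and -0.41. The cycling list differed in the same direction, with medians of -0.58 in ANS4 and -1.06 in BL6. The count of 7 ranged from 1, without the first ANS4 or the first BL6 library of BMP/FGF, to 14, without the second BL6 library of BMP.

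**Figure D5:**
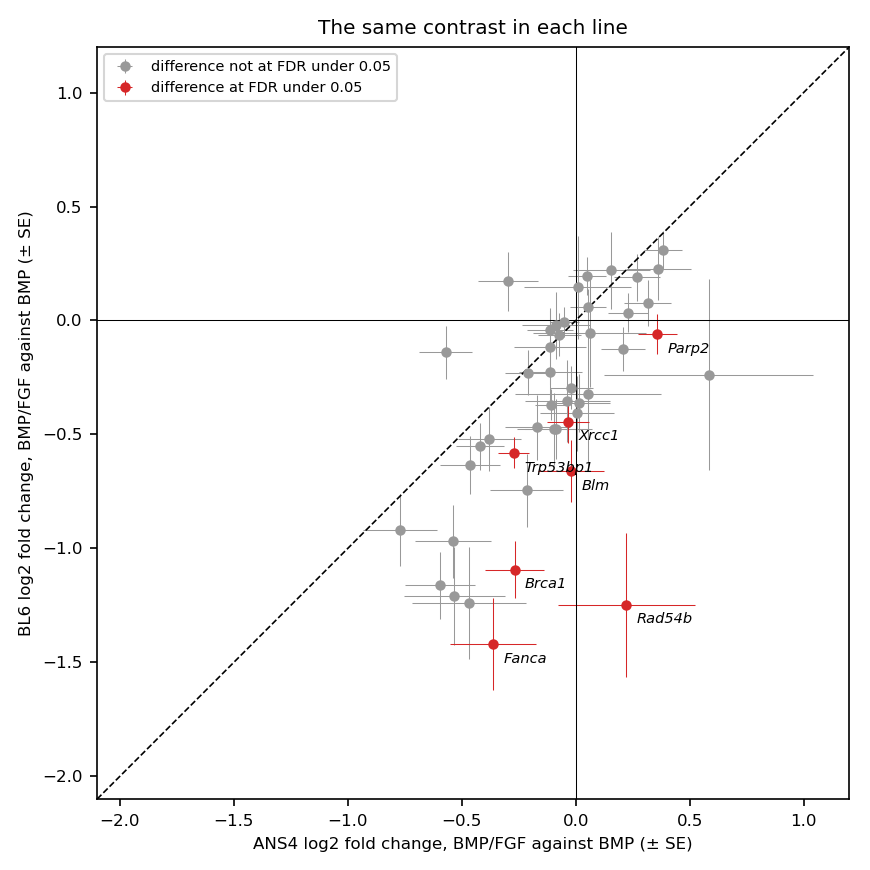
Log2 fold change (± SE) of BMP/FGF against BMP in ANS4 (horizontal) and BL6 (vertical) for the 46 genes, with the dashed line where both are equal and red points where the line difference passed FDR under 0.05. The 7 red points, among them Brca1 and Fanca, lie under the dashed line.

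Other genes of the same pathways were described by lists. Of 79 further repair and checkpoint genes tested, 58 were lower and 9 higher in BMP than in EGF/FGF, with a median of -0.66. These are 73.4% and 11.4% of the list, where 38.8% and 40.2% of all tested genes were lower and higher. In BMP/FGF against BMP 21 were lower (26.6%) and 11 higher (13.9%), with a median of -0.04, shares near the 21.5% and 19.2% of all tested genes. The checkpoint adaptors were lower in 16 of 17 cases in BMP, among them Clspn, which links Atr to Chek1, at -2.48 (SE 0.142). Of 17 further break repair genes 13 were lower and 2 higher, with Polq, the polymerase of an alternative end joining, at -2.37 (SE 0.166). Of 7 further Fanconi genes 3 were lower (42.9%, near the 38.8% of all tested genes) and 1 higher, with a median of -0.05. The lowest of these was Ube2t, the conjugating enzyme of the pathway, at -3.08 (SE 0.134). Of 22 further base excision and mismatch repair genes tested 17 were lower and 2 higher, from Neil3 at -2.50 to Aptx at 0.66.

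Nucleotide excision repair removes bulky lesions outside replication as well. Of its 16 genes 9 were lower (56.3%) and 4 higher (25%) in BMP, against 38.8% and 40.2% of all tested genes. The median of -0.31 lay between that of the further Fanconi genes (-0.05) and that of the further base excision and mismatch repair genes (-0.59). Ddb1, the most abundant of them, rose from 578 ± 23.6 CPM (SD, n = 4) in EGF/FGF to 760 ± 23.3 in BMP. Its log2 change was 0.39 (SE 0.0623, edgeR adjusted p 1.48e-05). The mean levels of the other 15 summed to 801 CPM in EGF/FGF, 620 in BMP and 629 in BMP/FGF. Xpa, which verifies the lesion, was at 1.12 (SE 0.0935) on the log2 scale in BMP.

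A list of 22 targets of p53 was described as well. Neither DNA damage nor p53 activity was measured in these libraries, and the cause of the changes in the 22 genes was not tested. In BMP 16 were lower (72.7%) and 4 higher (18.2%) than in EGF/FGF, against 38.8% and 40.2% of all tested genes. The median was -0.81, with values from -3.47 (Plk2) to 1.70 (Sesn1). In BMP/FGF against BMP 11 were higher (50%, against 19.2%) and the other 11 did not pass (edgeR), with a median of 0.23, while the cycling list and 18 of the 46 repair genes were lower. Cdkn1a, the p21 inhibitor of the cycle, was at 305 ± 37.8 CPM (SD, n = 4) in EGF/FGF, 72.7 ± 7.98 in BMP and 138 ± 6.65 in BMP/FGF, with a log2 change of 0.92 (SE 0.0763) between the last and BMP. Pmaip1, which promotes apoptosis, had the largest rise of the 22 from BMP to BMP/FGF, by 1.19 (SE 0.138). The study named 8 genes of an interferon-related damage signature, and 8 of 8 rose from BMP to BMP/FGF, with a median of 2.08. That list was chosen on these samples, so its direction is not independent evidence.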

How the data were processed

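Of 12 bulk RNA libraries of mouse NSC cultures the authors deposited estimated counts per gene as whole numbers. Per the labels and the study's methods, reads were trimmed with Trim Galore 0.5.0 and quantified with kallisto 0.44.0 on mm10, then summarized per gene with tximport. A second deposited table holds log2 values from the regularized logarithm of DESeq2 1.27.32, and 5.23% of tested genes differed by more than 0.1 in BMP against EGF/FGF from an rlog recomputed from the counts. Strandedness is not given in the sources used here. A library held 18069052 to 19451818 counts, so that 3 counts equal 0.155 to 0.167 CPM.

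Genes were kept with edgeR's filterByExpr over the 6 line and condition groups (13641 tested, 3724 not), scaled by TMM and fitted with glmQLFit (edgeR 4.0.16, R 4.3.3) on all 12 libraries with condition and line as terms. Tests were two-sided, with Benjamini-Hochberg adjustment across the 13641 genes, and called at FDR under 0.05, and separately beyond a log2 fold change of 1.5. Line differences came from an interaction in the model of 6 groups. CPM are scaled by TMM. Standard errors were derived as the absolute log2 fold change divided by the square root of edgeR's F statistic. Alternatives were DESeq2 1.42.0, limma 3.58.1 on the deposited log2 values, other scalings and filters, a replicate block, each line alone and leaving out each library. The script was tested on simulated counts.

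The genes, their roles and the lists were chosen with earlier results of these data known. Values in every library were given for the largest and smallest change in each role in BMP against EGF/FGF, the genes higher than in EGF/FGF, the 6 lowest p in BMP/FGF against BMP and the 4 lowest p of the line difference, and other genes were named for their role. Chek2 was added after its values were seen. Same-numbered replicates were not treated as pairs, since the correlation of replicate differences lay between -0.07 and 0.05. Gene positions and overlaps are from GENCODE vM21 on GRCm38, promoters from RefSeq on GRCm38.p6, and figures were drawn with matplotlib 3.10.9.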

Additional observations from a re-analysis of the deposited data

Results flagged for a closer look

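Over 138 sets of 4 libraries (46 genes in 3 conditions), 4 held a library far from the other 3. This share is smaller than the about 1 in 20 that chance alone gives. Each set pools 2 lines, so that rate is only a guide. Rad51d was at 31.6 CPM in the first ANS4 BMP/FGF library and at 27.6 to 28.1 in the others. Xrcc3 was at 2.14 CPM in the second ANS4 BMP/FGF library and at 1.34 to 1.45 in the others. In the first BL6 BMP library Fanci was at 8.50 CPM (5.33 to 5.82 in the others) and Atr at 25.6 CPM (21.1 to 21.6 in the others).

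The change from BMP to BMP/FGF differed between the lines, as BL6 minus ANS4 on the log2 scale by edgeR's interaction test, for Brca1 by -0.83 (adjusted p 0.00650), Fanca by -1.06 (adjusted p 0.0187), Parp2 by -0.42 (adjusted p 0.0329), Rad54b by -1.47 (adjusted p 0.0344), Trp53bp1 by -0.31 (adjusted p 0.0411), Blm by -0.64 (adjusted p 0.0416) and Xrcc1 by -0.41 (adjusted p 0.0466).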

How the results depend on the processing

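The counts of lower genes against EGF/FGF kept within 1.5 times in each of 22 alternative fits, from 41 to 43 in BMP and from 41 to 44 in BMP/FGF. The higher genes were 1 rather than 2 in both comparisons in limma on the deposited log2 values, where Rad51d was at -0.0658 in BMP/FGF against EGF/FGF. In BMP/FGF against BMP, ANS4 alone gave 7 lower and 6 higher genes, BL6 alone 1 higher and library size only 1 higher, and leaving out 1 library gave 1 to 4 higher genes. Line differences in that comparison numbered 3 by DESeq2, 4 with a replicate block, 3 with only the 8 libraries compared, 4 in limma on the deposited log2 values and 1 to 14 on leaving out 1 library. Line differences in BMP against EGF/FGF numbered 0 to 3 on leaving out 1 library, the 3 being without the first BL6 BMP library. The cause of these shifts was not tested, beyond the smaller number of samples in several of them.

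Same-numbered replicates did not deviate together, so the replicate block rests on a shared number only. With the block, 44 of 45 calls in BMP, 46 of 46 in BMP/FGF and 18 of 21 in BMP/FGF against BMP were kept.

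Of the calls against EGF/FGF, those of 3 genes in BMP were lost (Trp53bp1 in 13 alternatives, Fancf and Rad51d in 1 each). In BMP/FGF the calls of Fancf (in 5), Fance and Ogg1 (in 2 each) were lost. That of Rad51d was also lost there in limma on the deposited log2 values, where its sign changed. In BMP/FGF against BMP, Atr lost its call in 16 alternatives, Ung in 10, Xrcc1 and Chek2 in 9 each and Blm in 8. Signs changed in that comparison, with log2 values in ANS4 alone 0.0286 for Brca2, 0.0668 for Palb2, 0.24 for Rad54b, 0.0191 for Fancg, in BL6 alone -0.24 for Rad51b, -0.0539 for Fancb, 0.17 for Fancl, -0.12 for Rad50, -0.0579 for Parp2, with DESeq2 size factors -0.00421 for Fancb, with library size only -0.0376 for Fancb, by DESeq2 -0.00421 for Fancb, with no line term -0.00135 for Fancb and by limma on the deposited log2 values 0.0889 for Prkdc, 0.0214 for Lig3. On leaving out 1 library they ranged over 0, at -0.24 to 0.0617 for Palb2, -0.12 to 0.43 for Rad51b, -0.0695 to 0.11 for Fancb, -0.0119 to 0.16 for Fancf, -0.14 to 0.00222 for Fancl, -0.0283 to 0.13 for Rad50, -0.12 to 0.0128 for Lig4 and -0.12 to 0.0113 for Msh6. Apart from Prkdc these genes had no call in that comparison. At most 41 counts a library in the quiescent conditions limit the precision of Rad51b and Rad54b.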

Other observations

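A neighbouring protein-coding gene starts head to head within 1000 bases of 16 of the 46 repair genes (34.8%), against 1335 of 13166 tested coding genes (10.1%; GENCODE vM21). Of the 14 neighbours that were tested, 2 were lower and 5 higher in BMP than in EGF/FGF, against 38.8% and 40.2% of all tested genes. The neighbours had a median log2 fold change of 0.06, whereas the repair genes beside them had a median of -2.08. Nbr1, which starts 194 bases from Brca1, was higher by 0.81 where Brca1 was at -2.51. Emc3, 30 bases from Fancd2, was higher by 0.48 where Fancd2 was at -2.58. Mcm4, a subunit of the replicative helicase 466 bases from Prkdc, was at -2.16 where Prkdc was at -0.46. Npat, 307 bases from Atm, was at -0.03 and did not pass the test where Atm was at -0.74.

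Of the 46 genes, 6 differed by more than 0.1 in BMP against EGF/FGF between the deposited log2 values and an rlog recomputed from the counts. Among all tested genes 5.23% did so. All 6 were lower in the deposited table. The gaps were -0.43 for Prkdc, -0.37 for Rad51d, -0.24 for Trp53bp1, -0.15 for Xrcc6, -0.14 for Brip1 and -0.13 for Lig3. The cause was not tested.

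Outside the repair genes, Mlh3, a mismatch repair gene, was at -0.12 in BMP against EGF/FGF (edgeR adjusted p 0.290) and rose by 0.74 (SE 0.101) from BMP to BMP/FGF, the largest rise among the 79 further repair genes in that comparison. Fen1, the flap nuclease of replication and base excision, was the lowest of the 79 there, at -0.79 (SE 0.0844).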
